A study of Mus musculus with 20 samples.

Results

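Matrix metalloproteinases (MMPs) and their tissue inhibitors (TIMPs) were followed at the transcript level in mouse lung given house dust mite. The 10 genes are the MMPs Mmp12, Mmp13, Mmp8, Mmp2, Mmp9, Mmp14 and Mmp28 and the inhibitors Timp1, Timp2 and Timp3. They were found by symbol among the 24054 genes of the expression table, and all 10 had enough counts to be among the 16193 genes tested. RNA sequencing was done on whole lung of female C57Bl6 mice in 20 libraries, which form 4 groups of 5. Wild-type mice received saline (WT_saline) or house dust mite (WT_HDM), and so did mice labelled ALOX15 KO (KO_saline and KO_HDM). House dust mite (HDM) is an inhaled allergen that provokes allergic airway inflammation. It was given through the nose once a day for 14 days, and saline stood in its place in the controls. Libraries are named by group and replicate number, and levels are in CPM, a gene's counts relative to the TMM-scaled total of its library. A gene is said to have risen or fallen where edgeR's quasi-likelihood test gave a Benjamini-Hochberg adjusted p under 0.05 over all genes tested, and log2 fold changes stand with their standard error after ±.

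MMPs are zinc-dependent proteases that cut proteins of the extracellular matrix and many secreted and membrane proteins. Most are secreted as inactive proforms whose propeptide must be cut or displaced, and TIMPs then bind the active site and block it. A transcript level is therefore not a protease activity. In the lung MMPs take part in tissue repair, leukocyte entry and airspace destruction, and macrophages, neutrophils, fibroblasts and epithelium each make their own set of them.

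The targeted gene went against its label. Alox15, a lipoxygenase gene, lay between 0.825 and 11.1 CPM in WT_saline, 7.92 and 29.8 CPM in WT_HDM, 38.4 and 44.7 CPM in KO_saline and 35.0 and 45.5 CPM in KO_HDM, so it was higher in the libraries labelled knockout, and the label says only how these libraries were named. Total counts ran from 12573113 to 23305673. Lung epithelial markers summed to at least 12398 CPM in every library. Adipoq, an adipocyte hormone gene, reached 50 CPM or more in 5 libraries (WT_saline 2 and 4, WT_HDM 2 and 4 and KO_HDM 5), and skeletal muscle markers summed to 4189 CPM in WT_HDM 2. Results that these libraries decide are given with and without them. In whole lung, fewer cells of a type and less RNA per cell cannot be told apart.

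The sequences before the start sites of Mmp12, Mmp13 and Timp1 are shown because these 3 genes had the largest HDM responses of the 10. Each is the 100 bases before a RefSeq transcription start of mouse build GRCm38.p6, on the plus strand and written 5′ to 3′. Capitals mark a match to TGANTCA, a letter pattern that AP-1 transcription factors are known to bind and that reads the same on both strands.
Mmp12, chr9:7347274-7347373: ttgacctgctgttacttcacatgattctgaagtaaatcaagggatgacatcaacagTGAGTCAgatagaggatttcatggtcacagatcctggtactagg
Mmp13, chr9:7272414-7272513: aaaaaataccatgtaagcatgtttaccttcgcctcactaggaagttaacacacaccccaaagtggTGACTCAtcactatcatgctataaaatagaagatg
Timp1, chrX:20870066-20870165: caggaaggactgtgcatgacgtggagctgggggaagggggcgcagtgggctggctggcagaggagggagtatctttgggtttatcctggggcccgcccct
RefSeq promoter sequences were at hand for 8 of the 10 genes, all but Mmp2 and Mmp9. In the 250 bases before the start, TGANTCA was found for 2 of these 8, beginning 44 bases before the Mmp12 start and 35 bases before the Mmp13 start. Mmp12 has another RefSeq start, with no match before it. The same pattern occurs in 6.75% of 32851 such windows over all genes. TATAAA was found in the Mmp13 window, 16 bases before the start, against 12.4% of all windows. TTCNNNGAA, a pattern of the kind that STAT factors bind, and its variant with 1 more N in the middle were in no window of the 8 genes, against 7.02% and 5.85% of all windows. A letter match is a description and not evidence of binding, and Timp1, which also rose, has no TGANTCA in its window.

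HDM raised the transcripts of Mmp12, Mmp13, Mmp14 and Timp1 and lowered those of Timp2, Timp3 and Mmp28 in both genotype labels. Mmp2 and Mmp8 rose in the libraries labelled knockout, and Mmp9 passed the test in neither. In wild type 7 of the 10 genes passed, where 30.1% of all genes tested passed. They were 4 higher and 3 lower, against 13.6% and 16.5% of all genes. In the libraries labelled knockout 9 of 10 passed, against 51.9% of all genes, with 6 higher (26.2% of all genes) and 3 lower (25.7%). The median log2 fold change of the 7 MMPs was 0.46 in wild type and 1.21 under the knockout label, and that of the 3 TIMPs was -0.48 and -0.54, where the medians over all genes were -0.02 and 0.02.

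**Figure D1:**
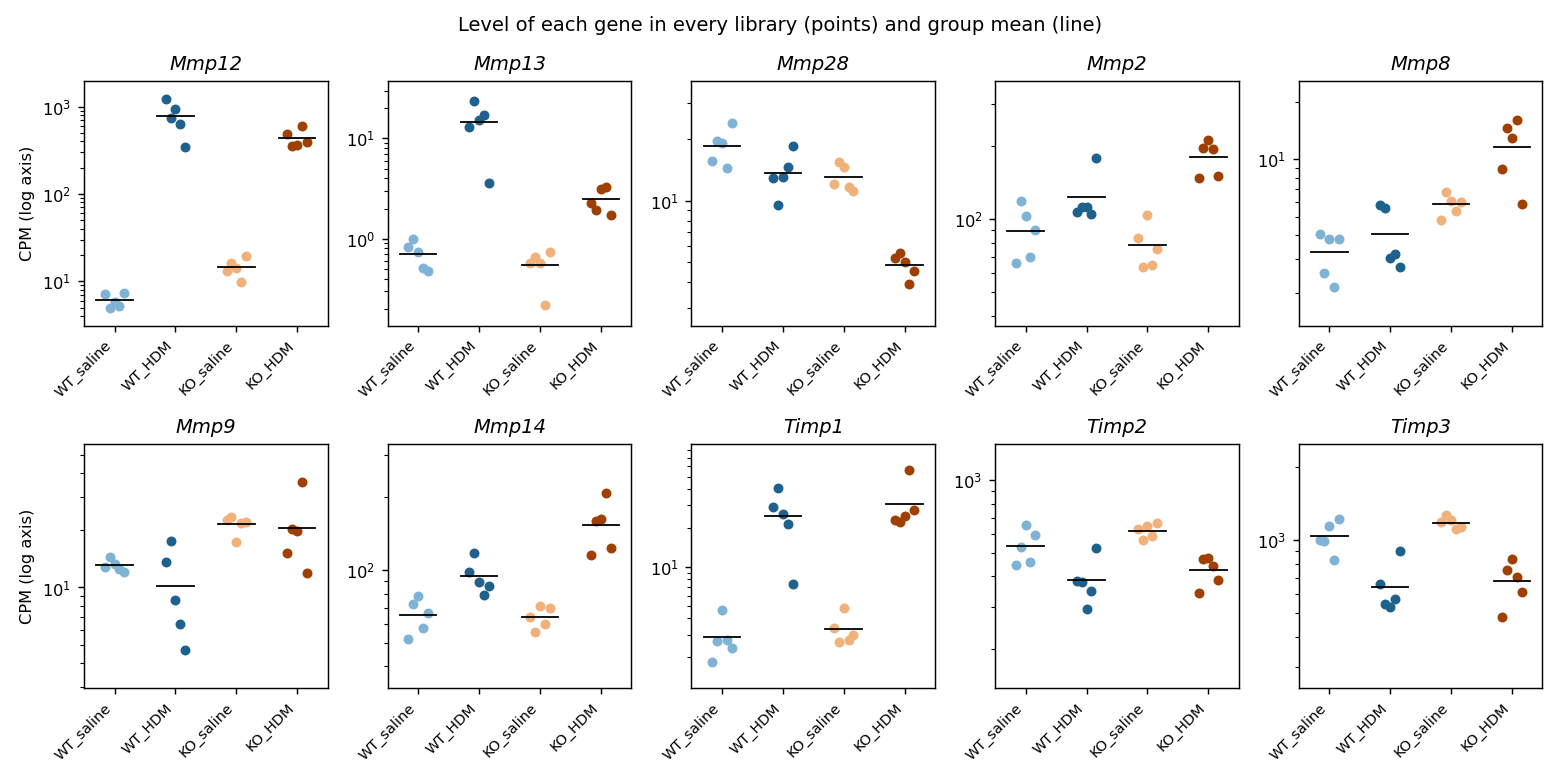
Level of each of the 10 genes in CPM (log axis) in every library (points, replicate 1 to 5 from left to right in each group) with the group mean (line). Mmp12 lies between 342 and 1226 CPM in the 5 WT_HDM libraries and below 20 CPM in all saline libraries, and Timp2 and Timp3 have lower means after HDM under both labels.

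Mmp12 encodes macrophage metalloelastase, which degrades elastin and is made mainly by macrophages. In WT_saline replicates 1 to 5 it stood at 7.17, 4.97, 5.80, 5.25 and 7.35 CPM, and in WT_HDM at 1226, 737, 948, 636 and 342 CPM. The KO_saline libraries held 13.0, 16.3, 14.3, 9.91 and 19.6 CPM, and the KO_HDM libraries 486, 351, 359, 605 and 397 CPM. Every HDM library lay far above every saline library, and WT_HDM 5 was the lowest of its group. The rise was 127-fold in wild type (log2 6.99 ± 0.33, adjusted p = 1.99e-10) and 30.1-fold in the libraries labelled knockout (log2 4.91 ± 0.30, adjusted p = 2.9e-09).

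The saline groups did not overlap for Mmp12, and the libraries labelled knockout were 2.39-fold higher there (log2 1.26 ± 0.27, adjusted p = 0.0279). After HDM the order of the means turned, with 778 ± 332 CPM (SD, n = 5) in WT_HDM and 440 ± 107 CPM in KO_HDM, but the groups overlapped and the difference missed the threshold (log2 -0.82 ± 0.25, adjusted p = 0.0585). The 2 HDM responses differed by -2.08 ± 0.37 on the log2 scale (interaction, adjusted p = 0.0103), a response 4.24-fold smaller under the knockout label. Of the 10 genes Mmp12 was the only one called under saline, where 0.908% of all genes were (0.593% higher, 0.315% lower). It was 1 of 2 called for the interaction, where 1.24% of all genes were (1.00% above 0, 0.235% below). Without the 5 Adipoq-rich libraries the saline difference was 1.12 with adjusted p = 0.206 and the interaction -2.01 with adjusted p = 0.0812, so neither was called in that smaller set. The saline call was also lost without any 1 of WT_saline 2, 3 or 4 (adjusted p = 0.0745, 0.0556 and 0.0662) or KO_saline 2, 3 or 5 (adjusted p = 0.0886, 0.0667 and 0.101), and with limma voom (adjusted p = 0.0705). The difference after HDM was called without WT_HDM 5, at -1.02 with adjusted p = 0.00604, and without KO_HDM 4 (adjusted p = 0.0495), by upper quartile scaling (adjusted p = 0.0487) and by DESeq2 (adjusted p = 0.0197).

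Mmp13 and Mmp8 encode collagenases, which can cut intact fibrillar collagen. Mmp13 was barely expressed under saline, at 0.825, 0.984, 0.744, 0.506 and 0.471 CPM in WT_saline and 0.574, 0.658, 0.572, 0.217 and 0.729 CPM in KO_saline. It stood at 13.0, 23.4, 15.4, 17.2 and 3.56 CPM in WT_HDM and at 2.29, 1.95, 3.16, 3.31 and 1.72 CPM in KO_HDM. All HDM libraries were above all saline libraries, and even the lowest WT_HDM library, replicate 5, was above all of KO_HDM.

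HDM raised Mmp13 20.5-fold in wild type (log2 4.36 ± 0.41, adjusted p = 5.89e-07) and 4.49-fold in the libraries labelled knockout (log2 2.17 ± 0.40, adjusted p = 0.000194). After HDM it was 5.81-fold lower under the knockout label (log2 -2.54 ± 0.37, adjusted p = 0.000328). The saline groups overlapped (log2 -0.35 ± 0.44, adjusted p = 0.702). The difference between the HDM responses was as large as that of Mmp12 but was not called (-2.19 ± 0.57, adjusted p = 0.0641). It was called in 3 of 29 other settings. These were DESeq2 (adjusted p = 0.00977) and the fits without WT_HDM 5 (-2.44, adjusted p = 0.00907) or KO_saline 4 (adjusted p = 0.0379). Without the Adipoq-rich libraries the difference was -1.69 with adjusted p = 0.221.

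Mmp8 is the collagenase that neutrophils store in their granules. In WT_saline it stood at 4.06, 2.54, 3.83, 2.16 and 3.82 CPM and in WT_HDM at 5.75, 5.57, 3.03, 3.21 and 2.72 CPM, with the groups overlapping (log2 0.31 ± 0.27, adjusted p = 0.424). In KO_saline it stood at 4.83, 6.76, 6.07, 5.35 and 5.97 CPM and in KO_HDM at 8.86, 14.5, 12.9, 15.99 and 5.82 CPM, and it rose 2.00-fold there (log2 1.00 ± 0.26, adjusted p = 0.00332), although KO_HDM 5 lay inside the saline range. The libraries labelled knockout were above wild type without overlap under both treatments. The difference was called after HDM, at 2.87-fold (log2 1.52 ± 0.27, adjusted p = 0.00175), and not under saline (log2 0.82 ± 0.27, adjusted p = 0.182). The interaction was 0.70 ± 0.38 with adjusted p = 0.377.

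Mmp2 and Mmp9 encode the gelatinases, which cut denatured collagen and basement membrane; fibroblasts are a known source of Mmp2 and neutrophils of Mmp9. Mmp2 stood at 65.8, 119, 104, 69.8 and 90.8 CPM in WT_saline and at 108, 112, 112, 105 and 179 CPM in WT_HDM. In KO_saline it stood at 84.1, 63.6, 104, 64.7 and 75.4 CPM, and in KO_HDM at 148, 198, 213, 196 and 151 CPM. KO_HDM lay wholly above KO_saline, with a rise of 2.31-fold (log2 1.21 ± 0.19, adjusted p = 3.24e-05), whereas the wild-type groups overlapped (log2 0.46 ± 0.19, adjusted p = 0.07). WT_HDM 5 alone stood at a level like that of KO_HDM. After HDM the labels differed by 0.55 ± 0.19 (adjusted p = 0.0821), and the interaction was 0.75 ± 0.26 (adjusted p = 0.165). The difference after HDM was called without WT_HDM 5, at 0.72 with adjusted p = 0.0193, and by DESeq2 (adjusted p = 0.0388). The rise in wild type was called in 5 of 30 other settings. Among these were the fits without WT_saline 2 (0.57, adjusted p = 0.0317) or KO_saline 3 (adjusted p = 0.0434) and DESeq2 (adjusted p = 0.0474).

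Mmp9 stood at 12.9, 14.5, 13.3, 12.6 and 12.1 CPM in WT_saline and at 13.7, 17.7, 8.55, 6.41 and 4.70 CPM in WT_HDM. The libraries of KO_saline had 22.7, 23.5, 17.5, 21.8 and 22.2 CPM, and those of KO_HDM 15.3, 20.3, 19.9, 35.8 and 11.9 CPM. The libraries lay further apart after HDM than under saline in both labels, with KO_HDM 4 far above the rest of its group. This spread was not tested. HDM gave no called difference (log2 -0.36 ± 0.30, adjusted p = 0.382 in wild type, and -0.06 ± 0.29, adjusted p = 0.873 under the knockout label). Under saline the libraries labelled knockout were all above wild type, by 1.65-fold (log2 0.72 ± 0.29), yet the adjusted p was 0.253. After HDM the groups overlapped and the difference of 1.02 ± 0.30 was called with adjusted p = 0.0447. That call was lost in 17 of 30 other settings. Among them were a fit to the 10 HDM libraries alone (adjusted p = 0.17) and fits without KO_HDM 4 (0.71, adjusted p = 0.179), WT_HDM 3 (adjusted p = 0.107), WT_HDM 4 (adjusted p = 0.116) or WT_HDM 5 (adjusted p = 0.0881). Without KO_HDM 2 or 3, WT_saline 2, 3 or 5 or any 1 KO_saline library the adjusted p lay between 0.0543 and 0.0775.

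Mmp14 encodes a membrane-anchored collagenase that activates pro-MMP2 at the cell surface together with TIMP2. It stood at 51.9, 72.2, 78.2, 57.8 and 66.2 CPM in WT_saline and at 98.2, 118, 89.2, 79.0 and 86.1 CPM in WT_HDM. In KO_saline it stood at 63.8, 55.2, 70.8, 59.9 and 69.8 CPM, and in KO_HDM at 115, 159.9, 162, 208 and 123 CPM. Neither pair of saline and HDM groups overlapped, although WT_HDM 4 lay just above the highest WT_saline library. The rise was 1.44-fold in wild type (log2 0.53 ± 0.15, adjusted p = 0.0118) and 2.41-fold under the knockout label (log2 1.27 ± 0.15, adjusted p = 1.69e-06). After HDM the libraries labelled knockout were 1.63-fold higher (log2 0.71 ± 0.15, adjusted p = 0.00652) with a small overlap, and the interaction missed the threshold (0.74 ± 0.21, adjusted p = 0.09), although it was called by DESeq2 (adjusted p = 0.0328) and without WT_HDM 2 (adjusted p = 0.049). Without the Adipoq-rich libraries the rise in wild type was 0.47 with adjusted p = 0.078.

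Mmp28 encodes epilysin, a secreted MMP made by epithelium and macrophages, and it was the only MMP of the 7 that fell. It stood at 15.6, 19.6, 19.1, 14.5 and 24.1 CPM in WT_saline and at 12.9, 9.53, 13.1, 14.6 and 18.5 CPM in WT_HDM. Under the knockout label it stood at 12.1, 15.5, 14.7, 11.7 and 11.2 CPM in KO_saline and in KO_HDM at 5.23, 5.55, 5.01, 3.91 and 4.53 CPM. KO_HDM lay below all other libraries of the study, while the wild-type groups overlapped. The fall under the knockout label was 2.68-fold (log2 -1.42 ± 0.17, adjusted p = 1.53e-06). In wild type it was 1.35-fold (log2 -0.43 ± 0.16, adjusted p = 0.0482), a call lost in 23 of 30 other settings. Leaving out any 1 library except WT_saline 1 or 4, WT_HDM 5 or KO_HDM 4 ended it, with an adjusted p of up to 0.203, reached without WT_saline 5. Without the Adipoq-rich libraries the fall in wild type was -0.41 with adjusted p = 0.141.

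After HDM Mmp28 was 2.83-fold lower in the libraries labelled knockout (log2 -1.50 ± 0.17, adjusted p = 2.8e-05). Under saline the difference was -0.51 ± 0.16 (adjusted p = 0.171). The HDM responses differed by -0.99 ± 0.23 (interaction, adjusted p = 0.0404), which was the other interaction called among the 10 genes. It was lost in 13 of 29 other settings, without the Adipoq-rich libraries (-1.01, adjusted p = 0.0828) among them. Leaving out any 1 of WT_saline 1, 2 or 4, WT_HDM 3, 4 or 5, KO_saline 2 or 3 or KO_HDM 3, 4 or 5 ended it, with adjusted p between 0.0506 and 0.0846.

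Timp1 encodes a secreted inhibitor of most MMPs and is the inhibitor best known to be induced by inflammatory signals. It stood at 1.84, 2.69, 4.68, 2.71 and 2.36 CPM in WT_saline and at 29.2, 40.9, 25.7, 21.6 and 7.33 CPM in WT_HDM. In KO_saline it stood at 3.35, 2.63, 4.80, 2.74 and 2.96 CPM, and in KO_HDM at 23.2, 22.1, 24.6, 56.1 and 27.4 CPM. All HDM libraries were above all saline libraries, with WT_HDM 5 the lowest of its group and KO_HDM 4 the highest. The rise was 8.69-fold in wild type (log2 3.12 ± 0.39, adjusted p = 1.55e-05) and 9.28-fold under the knockout label (log2 3.21 ± 0.39, adjusted p = 2.43e-06). The 2 responses differed by 0.10 ± 0.52 (adjusted p = 0.955), an error that leaves room for a difference of either sign.

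Timp2, a broadly expressed inhibitor that also takes part in pro-MMP2 activation, and Timp3, an inhibitor held in the matrix that also blocks ADAM proteases, fell. Timp2 stood at 445, 531, 652, 459 and 595 CPM in WT_saline and at 385, 381, 294, 347 and 523 CPM in WT_HDM, and at 564 to 664 CPM in KO_saline and 341 to 479 CPM in KO_HDM. Timp3 ranged from 830.1 to 1227 CPM in WT_saline, 529.9 to 906 CPM in WT_HDM, 1110.5 to 1269.8 CPM in KO_saline and 483 to 837 CPM in KO_HDM. The saline and HDM groups did not overlap under the knockout label for either gene, and they overlapped in wild type through WT_HDM 5, the highest of its group for both.

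Timp2 fell 1.39-fold in wild type (log2 -0.48 ± 0.14, adjusted p = 0.0145) and 1.45-fold under the knockout label (log2 -0.54 ± 0.14, adjusted p = 0.00307). Timp3 fell 1.62-fold (log2 -0.70 ± 0.16, adjusted p = 0.00255) and 1.74-fold (log2 -0.80 ± 0.16, adjusted p = 0.000284). The wild-type call of Timp2 was lost without WT_saline 3, WT_saline 5 or WT_HDM 3 (adjusted p = 0.053, 0.0535 and 0.0611) without the Adipoq-rich libraries (adjusted p = 0.0773) and in a fit to the 10 wild-type libraries alone (adjusted p = 0.0714). No TIMP differed by a called amount between the labels under saline, after HDM or in the interaction, with log2 differences between -0.11 and 0.30.

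**Figure D2:**
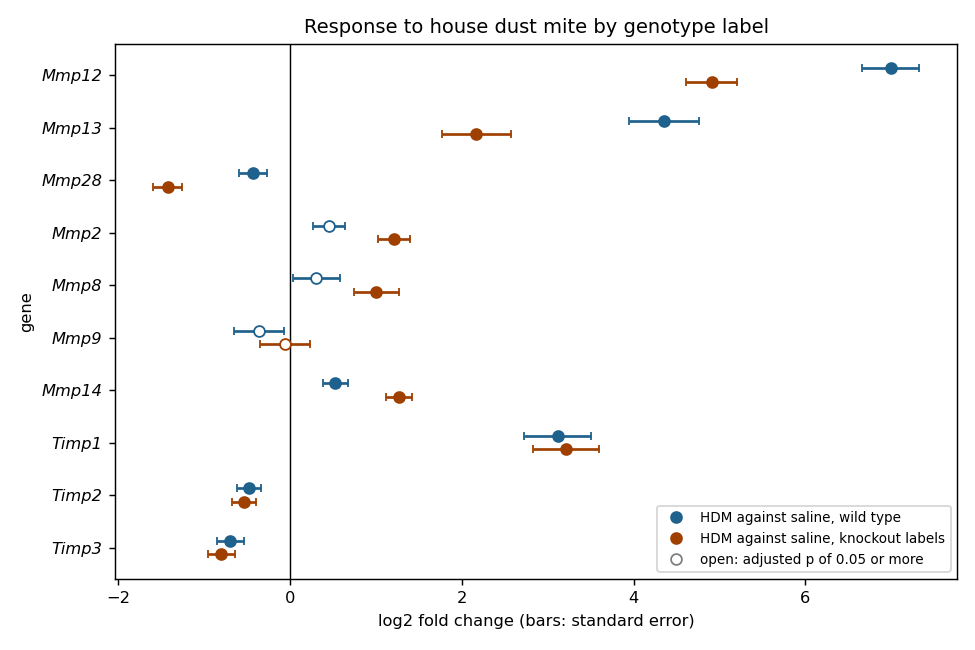
Log2 fold change of HDM against saline for each gene in wild type (blue) and in the libraries labelled knockout (orange), with bars for the standard error and open points for an adjusted p of 0.05 or more. Mmp12 moved furthest under both labels, at 6.99 and 4.91, and the 3 inhibitors have nearly equal values under both.

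Between the labels, then, the differences after HDM went in both directions. Mmp13 and Mmp28 were lower in the libraries labelled knockout and Mmp8, Mmp9 and Mmp14 were higher, so that 5 of 10 genes were called where 6.67% of all genes were. The 3 higher stand beside 4.79% of all genes and the 2 lower beside 1.88%. Groups without overlap were seen for 3 of the 10 genes after HDM (Mmp13, Mmp28 and Mmp8) and for 3 under saline (Mmp12, Mmp8 and Mmp9), against 7.01% and 3.06% of all genes. For HDM against saline such separation was seen for 4 of 10 genes in wild type and 8 of 10 under the knockout label, against 11.6% and 43.9% of all genes.

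**Figure D3:**
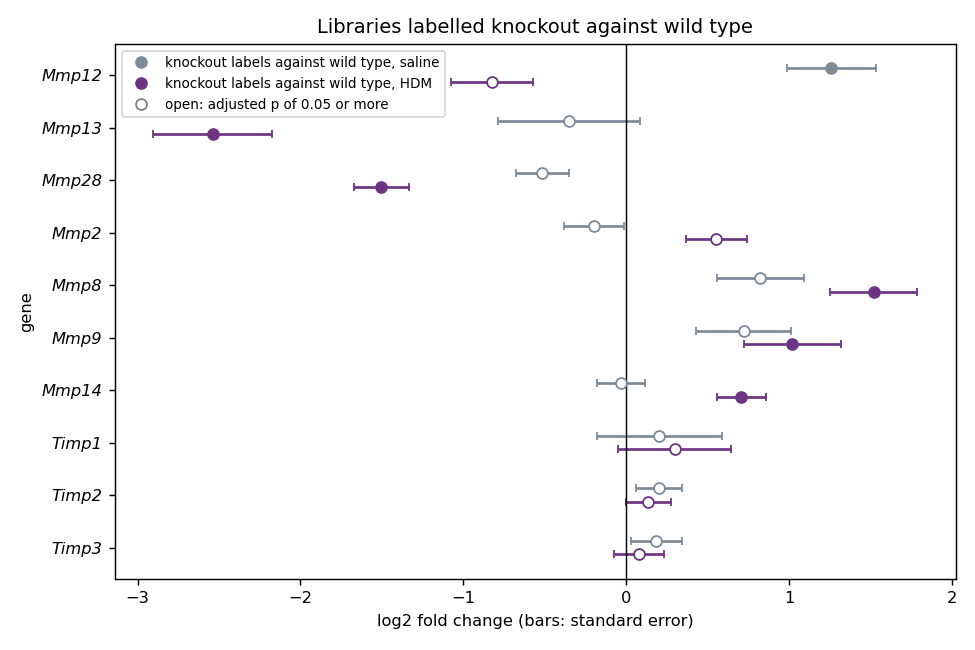
Log2 fold change of the libraries labelled knockout against wild type for each gene, under saline (grey) and after HDM (purple), with bars for the standard error and open points for an adjusted p of 0.05 or more. Mmp12 is the only gene above 0 under saline at 1.26 and below 0 after HDM at -0.82, and the 3 TIMPs lie near 0 under both treatments.

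Levels were compared between the 10 genes after division by transcript length in kilobases (CPM per kb, with the longest coding transcript of GENCODE vM21). Under saline Timp3 and Timp2 led, at 220.4 ± 32.5 and 145 ± 23.8 CPM per kb (SD, n = 5) in WT_saline and 251 ± 13.3 and 166 ± 11.1 CPM per kb in KO_saline. Mmp2 and Mmp14 followed in both groups, at 29.2 ± 7.35 and 20.2 ± 3.27 CPM per kb in WT_saline. Mmp13 was the lowest in both, at 0.264 ± 0.081 CPM per kb in WT_saline. After HDM Mmp12 reached 216 ± 92.2 CPM per kb and came first in WT_HDM, ahead of Timp3 at 136 ± 32.9 CPM per kb, but the 5 libraries of each overlapped in range. In KO_HDM Timp3 at 144 ± 28.9, Mmp12 at 122 ± 29.6 and Timp2 at 114 ± 15.9 CPM per kb lay within each other's spread. Mmp8 and Mmp9 stayed below 12 CPM per kb in every library.

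Summed over the 7 MMPs and divided by the sum over the 3 TIMPs, the length-scaled levels gave a ratio of 0.150 to 0.207 in WT_saline and 0.135 to 0.166 in KO_saline. The ratio was 0.554 to 1.54 in WT_HDM (median 1.12) and 0.698 to 1.04 in KO_HDM (median 0.773). Every HDM library was above every saline library, and WT_HDM 5 had the lowest ratio of all HDM libraries. Mmp12 made up 1.86% to 3.98% of the MMP sum in WT_saline and 5.01% to 8.43% in KO_saline, then 50.1% to 80.8% in WT_HDM and 42.7% to 58.8% in KO_HDM. Without Mmp12 the MMP sum was 60.5 ± 11.2 CPM per kb in WT_saline and 83.4 ± 9.38 in WT_HDM, and 58.4 ± 6.58 in KO_saline and 119.9 ± 24.04 in KO_HDM. The share of Timp1 in the TIMP sum went from at most 1.25% in saline libraries to between 2.43% and 17.5% in WT_HDM and between 8.02% and 19.2% in KO_HDM.

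**Figure D4:**
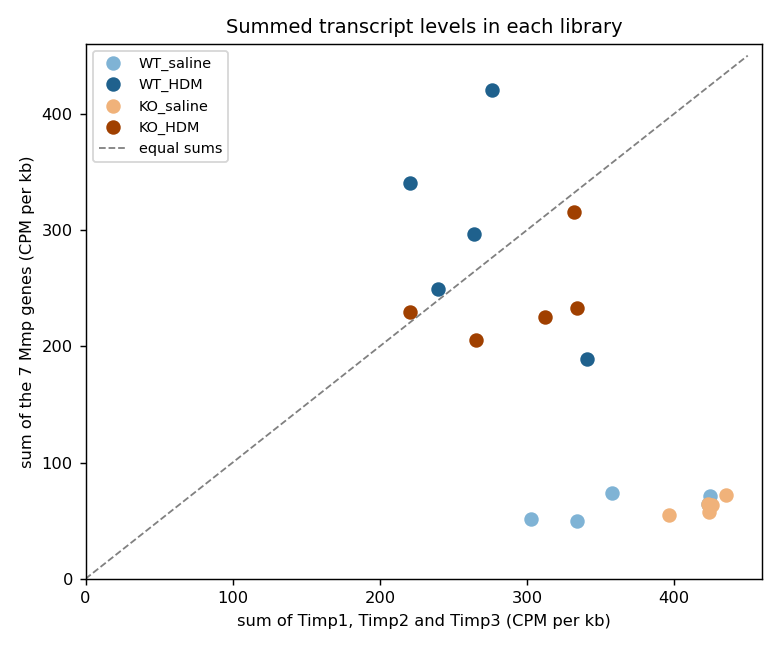
Sum of the 7 MMP levels against the sum of the 3 TIMP levels in each library (CPM per kb of the longest coding transcript), with a dashed line where both are equal. The 10 saline libraries lie low on the right, and the HDM libraries lie higher and mostly further left, with 4 of 5 WT_HDM and 1 of 5 KO_HDM libraries above the line.

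The ratio depends on the length taken for Mmp12, whose 3 coding transcripts run from 1185 to 3607 bases. With the shortest coding transcript of each gene the median ratio was 0.205 in WT_saline and 0.188 in KO_saline, and 2.72 in WT_HDM and 1.65 in KO_HDM. All 5 libraries of both HDM groups then had a larger MMP sum than TIMP sum. Where a library stands against equality is thus not settled by these counts, while the order of saline below HDM held with both lengths.

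Of 17 further genes of the protease family, which are other MMPs and Timp4, 11 could be tested. After HDM 4 of the 11 were called in wild type and 4 under the knockout label, beside 30.1% and 51.9% of all genes. In wild type Mmp19 rose (log2 2.84 ± 0.16, adjusted p = 2.01e-09, from 26.99 ± 3.51 to 194 ± 50.2 CPM) and Mmp3 (-0.79), Mmp11 (-0.65) and Mmp15 (-0.51) fell. Under the knockout label Mmp19 (2.24) and Mmp25 (0.83) rose and Mmp11 (-0.83) and Mmp15 (-0.85) fell. None of the 11 was called between the labels or in the interaction. The list medians were -0.18 and 0.06 for HDM, where all genes had -0.02 and 0.02. Mmp12, Mmp13 and Mmp8 lie in one MMP gene cluster of mouse chromosome 9, in the order Mmp13, Mmp12, Mmp1b, Mmp3, Mmp1a, Mmp10, Mmp8, Mmp27, Mmp20 and Mmp7. Of these neighbours, Mmp1b had 4 counts over all 20 libraries, Mmp1a 0, Mmp10 12, Mmp20 1 and Mmp7 18, and Mmp27, at 153 counts, was called in no comparison. The rises of Mmp12 and Mmp13 thus stood beside neighbours that were at very few counts, were not called or, for Mmp3 in wild type, fell, apart from Mmp8 under the knockout label.

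Among 14 genes of MMP activation and clearance, HDM in wild type raised 5 and lowered 1, where 13.6% and 16.5% of all genes rose and fell. A2m, a plasma-type protease trap, rose (1.97), as did Serpinb2 (1.53) and Plau (0.72), a plasminogen activator inhibitor and a plasminogen activator, and its receptor Plaur (0.64). Reck, a membrane-anchored MMP inhibitor, fell from 92.3 ± 16.7 to 39.0 ± 11.3 CPM (log2 -1.24 ± 0.16, adjusted p = 2.23e-05). Under the knockout label 4 rose and 3 fell, near the shares of all genes (26.2% and 25.7%). They included A2m at 3.31, Cd44, a surface receptor that docks MMP9, at 1.33, Reck at -1.37 and the plasminogen activator Plat at -0.84. Plg, the plasminogen gene, is expressed mainly in liver. It was found at 1.01 to 2.92 CPM in the 5 KO_HDM libraries and at no more than 0.254 CPM in any other, and was called in all 3 comparisons that involve KO_HDM. Cd44 was also higher in KO_HDM than in WT_HDM (0.80 ± 0.13, adjusted p = 0.000735) and in the interaction (0.76, adjusted p = 0.0416). None of the 14 differed by a called amount under saline. The list medians for HDM were 0.15 in wild type and 0.21 under the knockout label.

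Of 17 ADAM and ADAMTS genes, related metalloproteases of which several are targets of Timp3, 5 rose and 2 fell in wild type after HDM, and 10 rose and 3 fell under the knockout label. Over all genes 13.6% rose and 16.5% fell in wild type, and 26.2% and 25.7% under the knockout label. Adam8, a leukocyte protease, rose under both (1.82 and 1.75), and so did Adam17, the tumour necrosis factor sheddase (0.48 and 1.03). The aggrecanases Adamts1 (-0.87) and Adamts5 (-0.58) fell in wild type, and Adamts5 (-0.56) fell under the knockout label, as did Adam33 (-0.55) and Adamts15 (-0.58). After HDM the labels differed for Adam10 (0.47) and Adam17 (0.42), higher in KO_HDM, and Adam33 (-0.81), lower. Under saline Adamts9 (-0.83) and Adamts12 (-0.99) were lower in the libraries labelled knockout, and Adamts12 alone was called for the interaction (1.43, adjusted p = 0.0182).

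Of 18 genes for matrix proteins on which these proteases act, 6 rose and 3 fell in wild type, and 10 rose and none fell under the knockout label. The shares of all genes were 13.6% and 16.5% in wild type and 26.2% and 25.7% under the knockout label. Called in either direction there, 10 of 18 is near the 51.9% of all genes. Among those that rose under both were Tnc, tenascin C (1.45 and 2.32), Eln, elastin (1.05 and 2.06), Col3a1, a fibrillar collagen (0.92 and 1.81), Fn1, fibronectin (0.90 and 1.77), and Spp1, osteopontin (1.68 and 1.82). Hspg2 (-0.54), Lamb1 (-0.50) and Lama4 (-0.41), basement membrane proteins, fell in wild type. Fn1 was the only one of the 18 called between the labels after HDM (0.84, adjusted p = 0.00437), and none was called under saline or in the interaction. The list medians for HDM were 0.14 and 0.75.

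Markers of cell types known to make these proteases moved in the same comparisons. With HDM 13.6% of all genes rose and 16.5% fell in wild type, and 26.2% and 25.7% under the knockout label. Macrophage markers rose for 9 of 13 genes tested in wild type and 11 of 13 under the knockout label, with 1 fall in each (Marco). Their summed level was 2714 to 4001 CPM in WT_saline, 3348 to 6235 CPM in WT_HDM, 3782 to 5518 CPM in KO_saline and 5564 to 8870.5 CPM in KO_HDM. After HDM 7 of the 13 were higher under the knockout label, Emr1 (1.56) among them, against 4.79% of all genes. Mmp12 and Mmp13 were at lower means there. Under saline 1 of 13 was higher under that label (Trem2, 1.10), against 0.593% of all genes, beside the higher Mmp12. The part of macrophage number in these differences was not tested.

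Neutrophil markers are relevant to Mmp8 and Mmp9. Of 8 tested, 2 were higher in the libraries labelled knockout under saline (Lcn2, 1.22, and Retnlg, 1.198), and 4 after HDM (Ngp, 2.61, S100a8, 1.88, S100a9, 1.54, and Csf3r, 1.02). Of all genes 0.593% and 4.79% were higher in these comparisons. Their summed level was 177 to 622 CPM in WT_saline, 289.6 to 455 CPM in KO_saline, 654 to 1228 CPM in WT_HDM and 992 to 1787 CPM in KO_HDM, with Mpo, Elane and Camp too low to test. Lcn2 and Ltf, which epithelium also makes, held much of that sum: Ltf alone reached 472 CPM in WT_saline 2. Lcn2 held 62.5 ± 11.8 CPM (SD, n = 5) in WT_saline and 576 ± 254 CPM in WT_HDM. For HDM in wild type Lcn2 and Retnlg (1.35) rose, the other 6 tested were not called, and among these were S100a8 (-0.05), S100a9 (-0.45) and Ngp (-0.98). Under the knockout label HDM raised 3 of 8, Lcn2 (2.69) and Ltf (2.23) among them. S100a8 (0.15), S100a9 (-0.58) and Ngp (0.29) were not called there. Over all genes 13.6% rose in wild type and 26.2% under the knockout label. KO_HDM 4 had the highest sum of its group and also the highest Mmp8, Mmp9 and Timp1. It had the highest Mmp12, Mmp13 and Mmp14 as well, so this standing was not confined to genes linked to neutrophils. Mmp2, Timp2 and Timp3 were highest in KO_HDM 3 and Mmp28 in KO_HDM 2. The part of neutrophils in the Mmp8 and Mmp9 differences was not tested.

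HDM lowered markers of structural cells beside Timp2, Timp3 and Mmp28, where 16.5% of all genes fell in wild type and 25.7% under the knockout label. Endothelial markers fell for 7 of 8 genes in wild type and 8 of 8 under the knockout label, and fibroblast markers for 5 and 6 of 12, with 1 rise (Mfap5) under the knockout label. Summed fibroblast markers were 1101 to 1525 CPM in WT_saline and 602 to 1002 CPM in WT_HDM, and 1232 to 1391 CPM in KO_saline and 711 to 902 CPM in KO_HDM. Mmp2 and Mmp14, which fibroblasts also make, rose under the knockout label, and Mmp14 rose in wild type too. Lung epithelial markers fell for 1 of 6 in wild type, with 1 rise (Sftpa1), and for 5 of 6 under the knockout label. The part of cell composition in these changes was not tested. Of 5 skeletal muscle markers tested, 4 were called higher in WT_HDM than in WT_saline and than in KO_HDM, carried by WT_HDM 2, and no adipose marker of 7 and no cartilage or bone marker of 3 tested was called in any comparison.

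For each gene the most similar genes, up to 3, were taken by Pearson r of log2 CPM over the 20 libraries, among about 13062 genes with a mean log2 CPM of 1 or more. The libraries share depth, groups and cell content, so r describes them only, and r of the deviations from group means stands after it. Mmp12 was most like Mmp19 (0.988, within groups 0.715), Ctsk (0.982, 0.705) and Ccl9 (0.982, 0.865). Mmp13 was most like Nlrp1b (0.911, 0.455), Ccl9 (0.906, 0.734) and Arg1 (0.902, 0.615). Ccl9 was thus listed for both Mmp12 and Mmp13, the genes of the cluster that rose under both labels. Mmp9 was most like S100a9 (0.896, 0.779), S100a8 (0.889, 0.794) and Pilrb1 (0.886, 0.738), of which the first and second are neutrophil markers of the list above. Mmp8 was most like Slc13a3 (0.920, 0.829), Smpdl3b (0.911, 0.708) and Fgr (0.893, 0.754).

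Mmp2 was most like Eln, the elastin gene (0.951, 0.855), Fstl1 (0.920, 0.808) and Pmepa1 (0.916, 0.824). Mmp14 was most like B4galt1 (0.976, 0.908), Litaf (0.974, 0.850) and Fn1, fibronectin (0.964, 0.767). Mmp2 and Mmp14 thus each had a matrix gene among their nearest 3, whereas Mmp8, Mmp9 and Mmp13 had no gene of the matrix list there. Mmp28 was most like Vamp2 (0.941, 0.797), Npr3 (0.933, 0.630) and Chst15 (0.917, 0.451), and for Timp1 the values were 0.967 and 0.799 with Rab3il1 and 0.966 and 0.744 with Pla2g7. Timp2 and Timp3 had the highest values within groups, with Pcdhgc3 (0.975, 0.943), Nfic (0.974, 0.935) and Lix1l (0.968, 0.929) for Timp2 and Ctdsp2 (0.981, 0.945), Kank2 (0.979, 0.938) and Crim1 (0.978, 0.936) for Timp3.

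Among the 10 genes themselves, deviations from the group means went together most for Timp2 and Timp3 (r = 0.85 over 20 libraries), then for Mmp2 and Timp2 (0.77), Mmp8 and Mmp9 (0.74), Mmp9 and Timp1 (0.69), Mmp13 and Timp1 (0.68), Mmp9 and Mmp14 (0.68), Mmp2 and Timp3 (0.65), Mmp14 and Timp1 (0.64) and Mmp12 and Mmp13 (0.62). They were opposed most for Mmp9 and Mmp28 (-0.60). Mmp12 and Mmp2 had r = 0.67 over all libraries but -0.42 within groups. WT_HDM 5 has a large part in the latter value, with the lowest Mmp12 (342 CPM) and the highest Mmp2 (179 CPM) of its group. The r without that library was not computed, so no tendency of the other libraries is read from it.

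**Figure D5:**
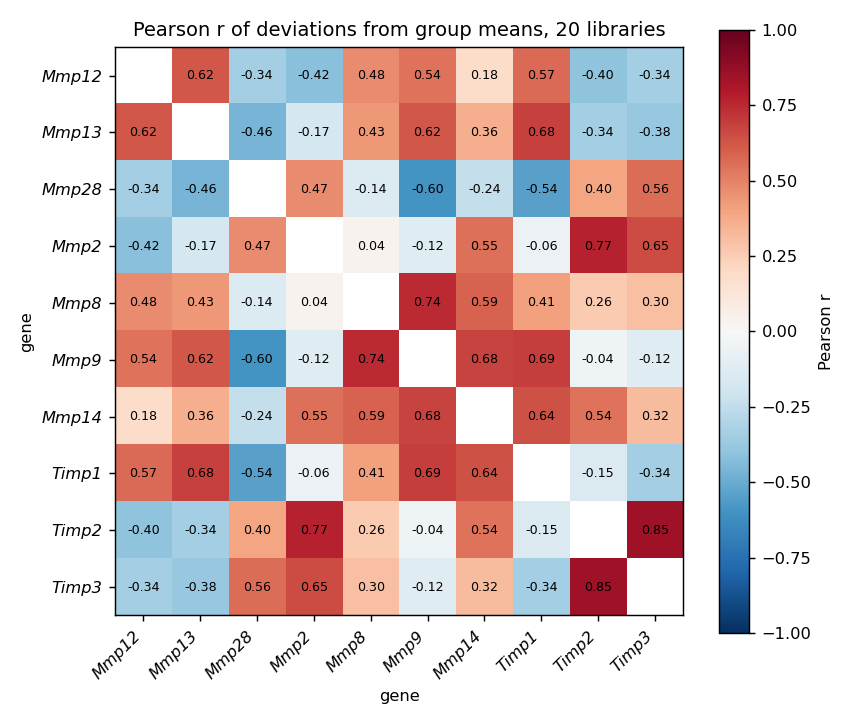
Pearson r of the deviations from group means (log2 CPM, 20 libraries) for each pair of the 10 genes, with red for positive and blue for negative values. Timp2, Timp3 and Mmp2 form one block with r of 0.65 to 0.85. Mmp8, Mmp9 and Timp1 have r of 0.41 to 0.74 with one another, and Mmp12, Mmp13 and Mmp14 have r of 0.43 to 0.68 with them.

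Some of these counts may hold reads of another gene. In the GENCODE annotation Mmp12 overlaps Mmp1b, Mmp28 overlaps 1700020L24Rik, Timp1 overlaps Syn1 and Timp3 overlaps Syn3 on the opposite strand, and Timp2 overlaps Cep295nl on the same strand. Whether the counting used strand is not given in the sources used here. Syn3 lay at 8.01 to 19.3 CPM beside Timp3 at 483 CPM or more, and it was not called for HDM under either label (0.13 and 0.14). Syn1 lay at 1.98 to 9.45 CPM and rose, as Timp1 did (1.40 in wild type and 1.07 under the knockout label). 1700020L24Rik lay at 2.03 to 9.33 CPM and fell, as Mmp28 did (-0.59 in wild type and -1.22 under the knockout label). Levels of Cep295nl were not analysed here. How many reads these pairs share was not tested, so Timp1 and Mmp28 are uncertain in this respect. RSEM gave fractional counts, which arise where reads are shared between genes, in 19 of 20 libraries for Timp3, 10 for Mmp14, 4 for Mmp12 and 1 for Timp1, and in none for the other 6 genes.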

How the data were processed

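RNA of 20 mouse lungs was sequenced, 5 biological replicates in each of 4 groups taken from the sample titles. Oligo-dT selection and a strand-keeping dUTP step were used for the libraries, per the labels' protocols. The authors deposited expected counts per gene, not normalized. Per the submitters' processing notes the tools were Bowtie2 2.1.0 and RSEM 1.2.15 and the build hg38. That build is human while the symbols are those of mouse, so the build used is not known. RSEM divides reads that match several genes among them, which can move counts between related genes.

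Expected counts were rounded to whole numbers, scaled with TMM factors and filtered by filterByExpr. The robust quasi-likelihood F test of edgeR 4.0.16 (R 4.3.3) was fitted on all 20 libraries with 1 mean per group and 16 residual degrees of freedom. It gave 5 comparisons: HDM against saline within each label, the labels against each other within each treatment, and the difference of the HDM responses (interaction). Benjamini-Hochberg adjustment ran over the 16193 genes of a comparison. The fit was tested on simulated counts. Totals of 12573113 or more counts make 1 CPM at least 12 counts. Genes named are the 10 members, up to 4 called genes per list and comparison by size, Alox15, marker genes and the 3 most similar genes of each member, of which 1 is not reported here. Some further called genes of the lists (Plaur, Adam10, Adam17, Adamts15 and Mfap5 among them) were chosen after their values were seen. The members and gene lists were chosen with earlier results of these data known. No 2 libraries of a group were copies of each other. Promoter sequences are from RefSeq (GRCm38.p6) and transcript lengths from GENCODE vM21. Alternatives were DESeq2 1.42.0 and its size factors, upper quartile scaling, limma 3.58.1 voom, 2 other filters, the compared groups alone, a replicate block, a 2-fold requirement, leaving out each library and, chosen after seeing the data, leaving out Adipoq-rich libraries or Rn45s.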

Additional observations from a re-analysis of the deposited data

Results flagged for a closer look

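In 4 of 40 sets of 5 libraries (10 genes in 4 groups) 1 library stood apart from the other 4 by Dixon's criterion, which chance meets in about 1 of 20 sets. Mmp13 was at 0.217 CPM in KO_saline 4 against 0.572 to 0.729 CPM in the other replicates. Mmp2 was at 179 CPM in WT_HDM 5 against 105 to 112 CPM. Mmp9 was at 17.5 CPM in KO_saline 3 against 21.8 to 23.5 CPM. Timp1 was at 56.1 CPM in KO_HDM 4 against 22.1 to 27.4 CPM.

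The HDM response differed between the genotype labels for Mmp12 by -2.08 on the log2 scale (edgeR, adjusted p = 0.0103) and for Mmp28 by -0.99 (adjusted p = 0.0404). Alox15 went against the labels, so the difference is between 2 sets of libraries as they were named.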

How the results depend on the processing

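Over 1490 log2 fold changes of the 10 genes under other settings, 1387 kept direction and side of the threshold, 69 lost and 17 gained a call, and 17 changed sign, none of them called. The cause was not tested. Members called for HDM in wild type numbered 3 with a 2-fold requirement and 4 without the Adipoq-rich libraries, and 5 to 7 when 1 library was left out. Under the knockout label they were 7 with a 2-fold requirement (Timp2 and Timp3 lost) and 9 in all other fits run. For saline they were 0 with voom, with the replicate block (Mmp12 1.28, adjusted p = 0.0518) and without the Adipoq-rich libraries, 2 with the compared groups alone (Mmp9 gained), and 0 to 1 leaving out 1 library. For the labels after HDM they were 4 to 6 leaving out 1 library and 4 to 7 in the other fits, with 7 by DESeq2 (Mmp12 and Mmp2 gained). For the interaction they were 4 by DESeq2 (Mmp13 and Mmp14 gained), 1 by voom and with a 2-fold requirement, 0 without the Adipoq-rich libraries and 1 to 3 leaving out 1 library. Whether replicate numbers pair the samples was not settled: the correlation of same-numbered deviations was above 0.1 in 4, 3, 4 and 1 of 5 pairs. Between the labels under saline it ran from -0.013 to 0.478, against -0.426 to 0.384 for pairs of unlike number. For HDM in wild type it ran from 0.004 to 0.506, against -0.628 to 0.626. Apart from Mmp12 under saline the block ended 1 call, Mmp28 in wild type (-0.42, adjusted p = 0.0583).

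Without the Adipoq-rich libraries 3 uncalled values changed sign: Mmp8 for HDM in wild type (-0.0347), Mmp9 for HDM under the knockout label (0.0686) and Timp3 between labels after HDM (-0.0031). Leaving out 1 library, uncalled values crossed 0 for Mmp14 under saline (-0.0837 to 0.0771), for Mmp9 in HDM under the knockout label (-0.40 to 0.0826), for Timp1 (-0.0442 to 0.55) and Timp3 (-0.00687 to 0.22) between labels after HDM, and in the interaction for Mmp9 (-0.0382 to 0.60), Timp1 (-0.27 to 0.35), Timp2 (-0.19 to 0.0677) and Timp3 (-0.19 to 0.0463). Over all genes DESeq2 called 327 in place of 147 under saline and 608 in place of 200 for the interaction, and the compared groups alone 2854 in place of 4866 for HDM in wild type. A 2-fold requirement left 1077, 2366, 80, 252 and 85 genes in the 5 comparisons. Leaving out 1 library gave 576 to 1396 genes between labels after HDM and 79 to 260 for the interaction, which without the Adipoq-rich libraries had 103. At the level of Mmp13 under saline, below 1 CPM, counting error limits a fold change.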
